A study of Homo sapiens with 16 samples.

Results

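Enzalutamide (ENZ) and apalutamide (APA), second-generation androgen antagonists, were compared with bicalutamide (BIC), a first-generation antagonist, in LNCaP cells that had also received dihydrotestosterone (DHT), the most potent natural androgen. The comparison takes 6 of the 16 RNA-seq libraries of the series, which are the 2 replicates each of BIC.DHT, ENZ.DHT and APA.DHT, or 3 of its 8 groups, taken by their labels. Every one of the 6 cultures received DHT at 10 nM and its antagonist at 10 µM for 48 h, after 72 h in full serum and 48 h in charcoal-stripped serum, which is depleted of steroids. The other groups were treated with solvents (VEH), DHT alone, or 1 antagonist without DHT (BIC.VEH, ENZ.VEH and APA.VEH). LNCaP is a single line from a lymph node metastasis of a prostate carcinoma, so the values describe this line at a single dose and a single time.

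Androgen antagonists are given in prostate cancer to hold back the transcription that androgen drives. In luminal prostate cells the genes that androgen raises include the kallikrein proteases of seminal fluid, feedback regulators, transporters, and enzymes of lipid and sugar nucleotide synthesis, and in LNCaP cells androgen also promotes proliferation. Bicalutamide is a propanamide with a sulfonyl link, whereas enzalutamide and apalutamide are thiohydantoins. Between the thiohydantoins, apalutamide has a pyridine ring where enzalutamide has a benzene ring, and a spiro-cyclobutane in place of a pair of methyl groups.

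The start regions of 3 genes that were called lower with the second-generation antagonists are printed first, because the rest of the account turns on genes of their kind: KLK3, which encodes prostate-specific antigen, PMEPA1, a membrane inhibitor of TGF-beta signalling, and ELOVL5, a fatty acid elongase. The sequences are from RefSeq (build GRCh38.p14), run from 250 bases before to 30 bases after the annotated start, 5′ to 3′ on the gene's strand, and carry in capitals any match to AGAACA or its reverse complement TGTTCT, the core that steroid receptors read in each arm of their response element. KLK3 lies on the plus strand (chr19:50854665-50854944), PMEPA1 on the minus strand (chr20:57711443-57711722) and ELOVL5 on the minus strand (chr6:53348921-53349200).
KLK3: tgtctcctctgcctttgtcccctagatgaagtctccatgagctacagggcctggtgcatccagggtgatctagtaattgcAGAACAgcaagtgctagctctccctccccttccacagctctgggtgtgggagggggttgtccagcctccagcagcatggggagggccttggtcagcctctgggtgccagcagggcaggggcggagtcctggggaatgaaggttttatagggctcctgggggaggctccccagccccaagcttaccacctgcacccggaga
PMEPA1: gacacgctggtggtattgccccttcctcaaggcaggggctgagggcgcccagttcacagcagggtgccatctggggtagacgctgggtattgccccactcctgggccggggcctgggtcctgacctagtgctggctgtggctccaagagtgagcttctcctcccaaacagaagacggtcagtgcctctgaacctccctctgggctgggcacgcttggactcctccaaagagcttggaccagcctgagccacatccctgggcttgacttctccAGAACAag
ELOVL5: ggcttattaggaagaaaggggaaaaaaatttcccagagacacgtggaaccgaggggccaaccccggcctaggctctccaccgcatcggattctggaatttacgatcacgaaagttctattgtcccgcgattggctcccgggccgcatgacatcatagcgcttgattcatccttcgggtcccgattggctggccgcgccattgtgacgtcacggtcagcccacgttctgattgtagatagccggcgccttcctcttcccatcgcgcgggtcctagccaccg
The match starts at base -170 in KLK3 and at base 23 of the transcribed part in PMEPA1, and the ELOVL5 stretch holds none. Over the 300-base window from 250 before to 50 after the start, searched on both strands, AGAACA occurred in 939 (8.87%) of the 10584 tested genes that had a RefSeq start sequence, in 7 (22.6%) of the 31 called lower in 2 (33.3%) of the 6 called higher and in 3 (7.89%) of the 38 on the androgen-induced lists. A longer palindrome, made of the arm GNACA, 3 open positions and the reverse complement TGTNC, can overlap the shorter motif in either arm. It occurred in 18 (0.17%) of all these windows, in 1 (2.63%) of the 38 and in 0 of the windows of called genes. These counts describe the letters near the start and were not tested.

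Abundances were deposited as TPM, transcript abundance per length relative to the total of a library. The deposited columns sum to slightly less than the nominal total of the unit and differ a little in their sums, and they were used without rescaling. This unit keeps no record of how deeply a library was sequenced, and the depth is unknown. Between 14830 and 15191 genes reached 1 TPM in the 6 libraries, transcripts of the mitochondrial genome made up 16.2% to 20.6% of the total TPM, and the replicates of a group correlated across genes with r between 0.964 and 0.979 on the log2(TPM + 1) scale. All 9 luminal prostate markers, including HOXB13, FOXA1, KRT8 and KRT18, were at 1 TPM or more in each of the 6 libraries. The 3 basal markers summed to 0.05 to 0.68 TPM, SYP alone of 5 neuroendocrine markers reached 1 TPM, and of 4 mesenchymal markers VIM and FN1 did. Replicate numbers were taken to pair the samples, and the number was kept as a block in the limma fit. Differences between replicates 1 and 2 correlated across genes between every pair of groups. That correlation was 0.635 between ENZ.DHT and APA.DHT, but only 0.268 between ENZ.DHT and BIC.DHT and 0.367 between APA.DHT and BIC.DHT.

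With DHT present, 48 of 16636 tested genes (0.289%) differed between the 4 ENZ.DHT and APA.DHT libraries and the 2 BIC.DHT libraries at an adjusted p below 0.05 (limma, Benjamini-Hochberg). Of these, 36 (0.216% of the genes tested) were lower and 12 (0.0721%) were higher with the second-generation antagonists. Of the 36 lower genes 11 were on an androgen-induced list, 5 on the DNA replication list and 19 on no list. The median log2 fold change over all genes was -0.02, and 53.7% of all genes lay below 0. At an unadjusted p below 0.05, 1309 genes (7.87%) were lower and 1131 (6.8%) higher. The calls depended on the block, on other choices of the fit and on single libraries. Without the block 0 genes were called in limma, with 751 at an unadjusted p below 0.05, while all 48 genes kept their sign. There were 0 calls with only the 3 compared groups in the fit (1869 unadjusted), 1 with both drugs as 1 group, 11 with a pseudocount of 0.1 and 25 with no filter on low values, against 90 with median-ratio scaling and 85 without the trend option. Leaving out BIC.DHT replicate 1 left 0 calls (1059 unadjusted) and leaving out BIC.DHT replicate 2 left 1. The count was 9 without ENZ.DHT replicate 1, 204 without ENZ.DHT replicate 2, 16 without APA.DHT replicate 1 and 27 without APA.DHT replicate 2. Across all genes the difference seen in replicate 1 and the difference seen in replicate 2 correlated at r = 0.0542.

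Among proteases of the luminal cell, KLK3, KLK4 and TMPRSS2 were lower with enzalutamide and apalutamide than with bicalutamide. Of 11 prostate secretory genes tested, these 3 were called lower, 0 were called higher, 10 had a log2 fold change below 0, and the median was -0.60. Of all genes tested, 0.216% were called lower and 53.7% were below 0. In 7 of the 11 the 4 second-generation libraries all lay below both bicalutamide libraries, which held for 911 (5.48%) of all genes. The median was -0.92 with a pseudocount of 0.1 in place of 1.

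KLK3, at chr19:50854915-50860764, stood at 845 and 445 TPM in replicates 1 and 2 of BIC.DHT, at 296 and 115 in ENZ.DHT, and at 339.8 and 90.4 in APA.DHT. Both bicalutamide libraries were above all 4 others, although replicate 2 was the lower one in every group. The same transcript was at 53.0 and 24.0 TPM in VEH and at 4102 and 2422 in DHT alone. The log2 fold change against bicalutamide was -1.76 ± 0.28 (SE), a 3.39-fold lower TPM + 1 (adjusted p = 0.0401 in limma), with -1.41 in replicate 1 and -2.12 in replicate 2. KLK2 (chr19:50873439-50880567), a trypsin-like kallikrein that activates the KLK3 product, was at 77.9 and 71.1 TPM in BIC.DHT, 34.2 and 15.1 in ENZ.DHT, and 34.6 and 9.53 in APA.DHT. Its groups did not overlap either, and its log2 fold change of -1.81 ± 0.36 (SE) missed the threshold (adjusted p = 0.0593 in limma). KLK2 and KLK3 are close in sequence, and the expectation-maximisation counter divides shared reads between them, so the split between this pair is uncertain.

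KLK4 (chr19:50906351-50911395), a kallikrein that also matures tooth enamel, was at 239 and 178 TPM in BIC.DHT, 136 and 62.8 in ENZ.DHT, and 119.7 and 46.7 in APA.DHT. The second-generation values lay below both bicalutamide values, with a log2 fold change of -1.30 ± 0.21 (SE, adjusted p = 0.0401 in limma). TMPRSS2 (chr21:41464305-41508158), a transmembrane serine protease, was at 76.1 and 54.6 TPM in BIC.DHT, 49.0 and 37.1 in ENZ.DHT, and 46.1 and 27.2 in APA.DHT. Its groups were also apart, and its log2 fold change was -0.72 ± 0.10 (SE, adjusted p = 0.0237 in limma). PGC, which encodes the protease precursor progastricsin, was at 2.00 and 1.55 TPM in BIC.DHT and between 0.19 and 0.66 TPM in the other 4 libraries, and missed the threshold (adjusted p = 0.0577 in limma). MSMB, the seminal microprotein, stayed below 1 TPM in all 6 libraries (log2 fold change -0.02, adjusted p = 0.977 in limma).

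**Figure D1:**
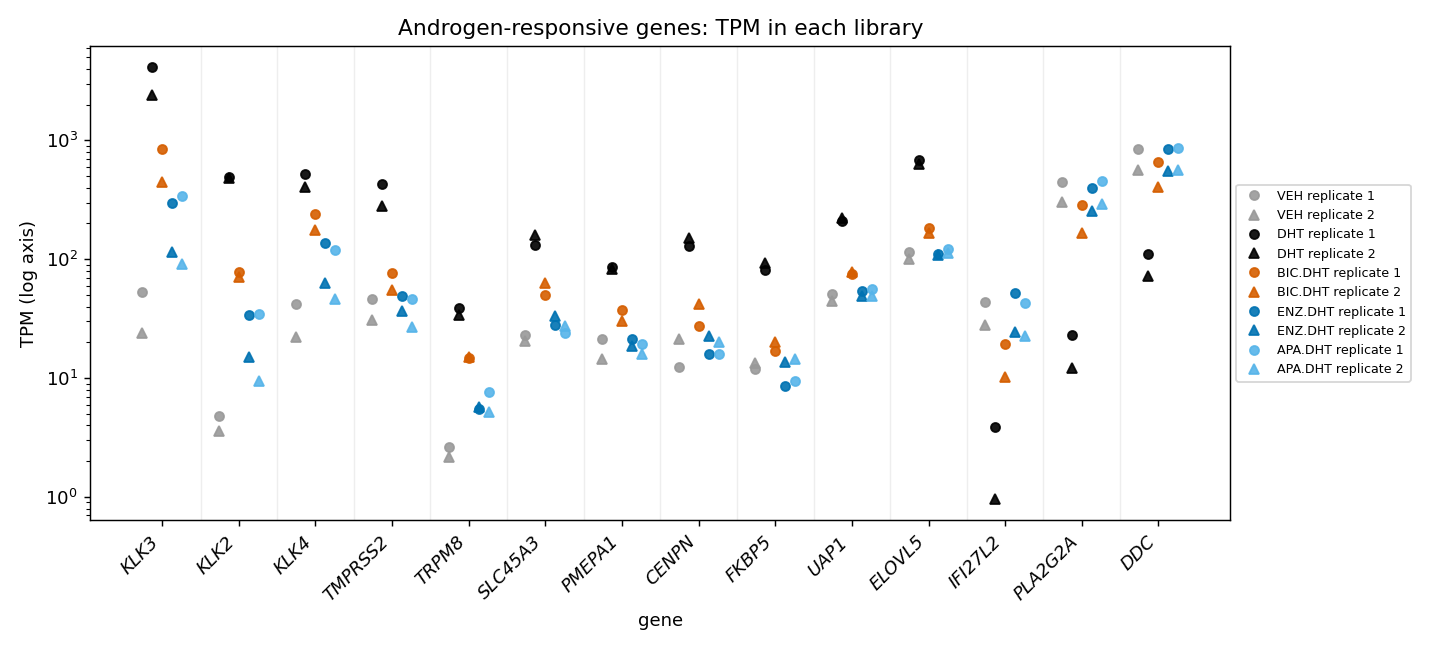
TPM (log axis) of 14 genes in each library of VEH, DHT, BIC.DHT, ENZ.DHT and APA.DHT, circles for replicate 1 and triangles for replicate 2. For the first 11 genes the bicalutamide libraries sit between DHT alone and the other antagonists, with KLK3 at 845 and 445 TPM in BIC.DHT against 90.4 to 339.8 in ENZ.DHT and APA.DHT, and for IFI27L2, PLA2G2A and DDC the order is turned around within each replicate.

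Regulators that androgen induces showed the same direction. Of 22 tested, 4 were called lower and 0 higher, 20 had a log2 fold change below 0, and 13 had all 4 second-generation libraries below both bicalutamide libraries. The shares over all genes tested were 0.216% called lower, 53.7% below 0 and 5.48% without overlap in that direction. The list's median was -0.41, with -0.55 in replicate 1 and -0.28 in replicate 2. PMEPA1 (chr20:57648396-57711472), whose start region is printed above, was at 37.5 and 30.2 TPM in BIC.DHT, 21.3 and 18.5 in ENZ.DHT, and 19.6 and 15.8 in APA.DHT. The bicalutamide libraries were both above the other 4, and the log2 fold change was -0.81 ± 0.09 (SE, adjusted p = 0.0165 in limma). CENPN, a centromere protein, was at 27.5 and 41.7 TPM in BIC.DHT, 16.0 and 22.6 in ENZ.DHT, and 15.9 and 20.03 in APA.DHT. There was no overlap between its groups, and the log2 fold change was -0.85 ± 0.11 (SE, adjusted p = 0.0171 in limma).

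FKBP5, a co-chaperone of steroid receptors that is a standard readout of their activity, was at 16.8 and 20.1 TPM in BIC.DHT, 8.56 and 13.6 in ENZ.DHT, and 9.47 and 14.4 in APA.DHT. All second-generation values were below both bicalutamide values (log2 fold change -0.66 ± 0.11 SE, adjusted p = 0.0401 in limma). In VEH the gene was at 11.99 and 13.5 TPM. Not every regulator separated. TSC22D3, the glucocorticoid-induced leucine zipper gene, had a log2 fold change of -0.07 (adjusted p = 0.793 in limma), and ELL2, an elongation factor of RNA polymerase II, had -0.48 (adjusted p = 0.253 in limma).

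Genes for transport and metabolism under androgen control were lower in 20 of 20 tested, with 4 called, 13 free of overlap and a median of -0.43. Of all genes tested, 53.7% were below 0, 0.216% were called lower and 5.48% were free of overlap in that direction. TRPM8 (chr2:233917373-234019522), a cold-gated calcium channel of the prostate epithelium, was at 14.7 and 15.1 TPM in BIC.DHT, 5.52 and 5.73 in ENZ.DHT, and 7.61 and 5.15 in APA.DHT. Its groups were far apart, with a log2 fold change of -1.19 ± 0.16 (SE, adjusted p = 0.0246 in limma). SLC45A3 (chr1:205657851-205680509), the membrane transporter also called prostein, was at 49.7 and 63.6 TPM in BIC.DHT, 27.7 and 33.6 in ENZ.DHT, and 23.8 and 27.5 in APA.DHT. It too had no overlap, and its log2 fold change was -0.98 ± 0.11 (SE, adjusted p = 0.0165 in limma).

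UAP1, the enzyme that makes UDP-N-acetylglucosamine, was at 74.98 and 77.6 TPM in BIC.DHT and between 49.2 and 56.7 TPM in the other 4 libraries (log2 fold change -0.54 ± 0.08 SE, adjusted p = 0.0387 in limma). Its groups did not overlap. Members that did not pass the test included SORD, the sorbitol dehydrogenase gene (-0.46, adjusted p = 0.073 in limma), the organic anion exporter gene ABCC4 (-0.44, adjusted p = 0.179 in limma) and the acyl-CoA synthetase gene ACSL3 (-0.45, adjusted p = 0.134 in limma). Over the 3 androgen-induced lists together, 11 of 53 genes were called lower, 0 were called higher, and the median was -0.44. Of all genes tested 0.216% were called lower.

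In lipid synthesis ELOVL5 was the called gene. In the list of 31 sterol and lipid synthesis genes, 1 was called and 26 had a log2 fold change below 0, against 0.216% called lower and 53.7% below 0 over all genes. The list's median was -0.27, with -0.46 in replicate 1 and -0.11 in replicate 2. ELOVL5 (chr6:53267404-53348950) was at 183 and 166 TPM in BIC.DHT, 111 and 108 in ENZ.DHT, and 122 and 112 in APA.DHT. Its libraries were apart with little spread within groups, and the log2 fold change was -0.62 ± 0.06 (SE, adjusted p = 0.0165 in limma). The feedback gene INSIG1 (-0.55, adjusted p = 0.09 in limma) was not called. FASN, the fatty acid synthase gene, had -0.24 (adjusted p = 0.332 in limma). ELOVL7, a further elongase gene that was on no list, was called lower at -0.79 ± 0.13 (SE, adjusted p = 0.0422 in limma), as were MALL, a membrane raft protein, at -0.78 ± 0.12 (SE, adjusted p = 0.0401 in limma), and MBOAT2, a lysophospholipid acyltransferase gene, at -0.53 ± 0.08 (SE, adjusted p = 0.0387 in limma).

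**Figure D2:**
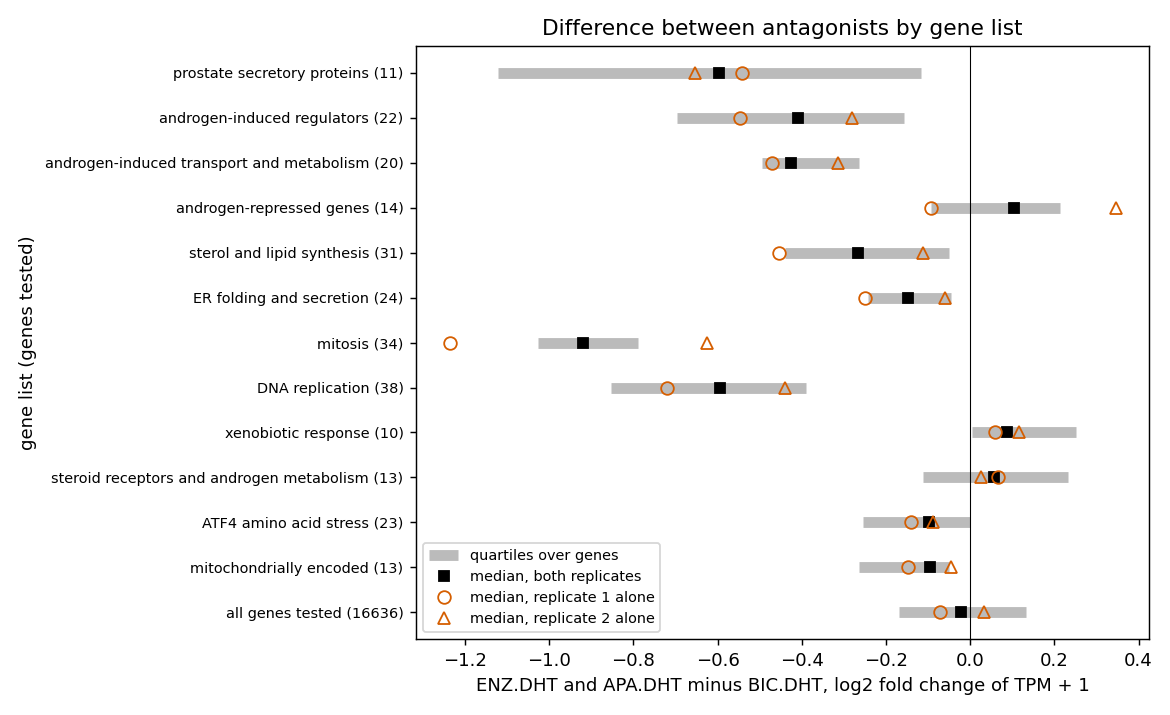
Median log2 fold change of TPM + 1 (ENZ.DHT and APA.DHT minus BIC.DHT) of 12 gene lists and of all genes tested, with quartiles over genes as grey bars and each replicate's own median as open symbols. Mitosis lies furthest below 0 (median -0.92), followed by the prostate secretory genes (-0.60) and DNA replication (-0.59), while all genes together lie at -0.02.

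Of 72 genes on the lists for mitosis and DNA replication 5 were called lower and 0 higher, and 66 were lower in all 4 comparisons within a replicate number. Most levels overlapped between groups, and the median level of both lists was higher in replicate 2 than in replicate 1 of every group. In the mitosis list 34 of 34 genes had a log2 fold change below 0, 33 were at an unadjusted p below 0.05, 0 were called after adjustment and 0 were free of overlap. Of all genes tested, 53.7% were below 0 and 7.87% were lower at an unadjusted p below 0.05. In the same direction 0.216% were called and 5.48% were free of overlap. The mitosis list's median log2(TPM + 1) was 3.34 and 4.40 in replicates 1 and 2 of BIC.DHT, 2.08 and 3.90 in ENZ.DHT, and 2.37 and 3.82 in APA.DHT. The corresponding medians were 2.36 and 3.79 in VEH and 4.06 and 4.91 in DHT. The median log2 fold change was -0.92, with -1.24 in replicate 1 and -0.63 in replicate 2, and -0.61 without BIC.DHT replicate 1. Of the 34 genes, 33 were lower in all 4 comparisons of a second-generation library with the bicalutamide library of the same number, which held for 2814 (16.9%) of all genes. In bulk RNA, fewer cycling cells and less of these transcripts per cell cannot be told apart.

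Genes of DNA replication included 5 calls among 38 tested, all lower, against 0.216% called lower over all genes tested. PRIM1, the catalytic subunit of primase, was at 7.17 and 13.2 TPM in BIC.DHT, 2.81 and 8.32 in ENZ.DHT, and 3.19 and 7.06 in APA.DHT. In each replicate the bicalutamide library was the highest of the 3, and the log2 fold change was -0.87 ± 0.11 (SE, adjusted p = 0.0165 in limma). PCNA, the sliding clamp of DNA polymerase, was at 70.3 and 116.35 TPM in BIC.DHT, 46.6 and 85.6 in ENZ.DHT, and 48.4 and 86.2 in APA.DHT, with the same order within replicates (log2 fold change -0.50 ± 0.08 SE, adjusted p = 0.0387 in limma). TYMS, the thymidylate synthase gene (-0.91 ± 0.15 SE), MCM7 of the replicative helicase (-0.58 ± 0.09 SE) and FEN1, the flap endonuclease gene (-0.80 ± 0.14 SE), were also called. The list's median was -0.59, and 36 of 38 genes were below 0, against 53.7% of all genes tested.

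Among mitotic genes the 3 nearest the threshold were CDCA8 of the chromosomal passenger complex (-0.87, adjusted p = 0.0531 in limma), the kinase gene AURKA (-0.90, adjusted p = 0.0577 in limma) and CCNB1, the mitotic cyclin (-0.73, adjusted p = 0.0593 in limma). MKI67, the proliferation marker, was at 6.07 and 14.8 TPM in BIC.DHT, 1.11 and 9.99 in ENZ.DHT, and 2.19 and 8.46 in APA.DHT. It was highest with bicalutamide in both replicates, and did not pass at -1.04 ± 0.25 (SE) on the log2 scale (adjusted p = 0.102 in limma). Outside the lists, the condensin subunit gene NCAPH (-1.03 ± 0.17 SE, adjusted p = 0.0401 in limma), the spindle checkpoint gene MAD2L1 (-0.76 ± 0.13 SE, adjusted p = 0.0493 in limma) and CCNA2, the S-phase cyclin (-0.72 ± 0.12 SE, adjusted p = 0.0401 in limma), were called lower, all with overlapping levels. ORC1 of the origin recognition complex was at 3.36 and 5.82 TPM in BIC.DHT and between 1.17 and 3.33 TPM in the other libraries, and was called without overlap (adjusted p = 0.0387 in limma).

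**Figure D3:**
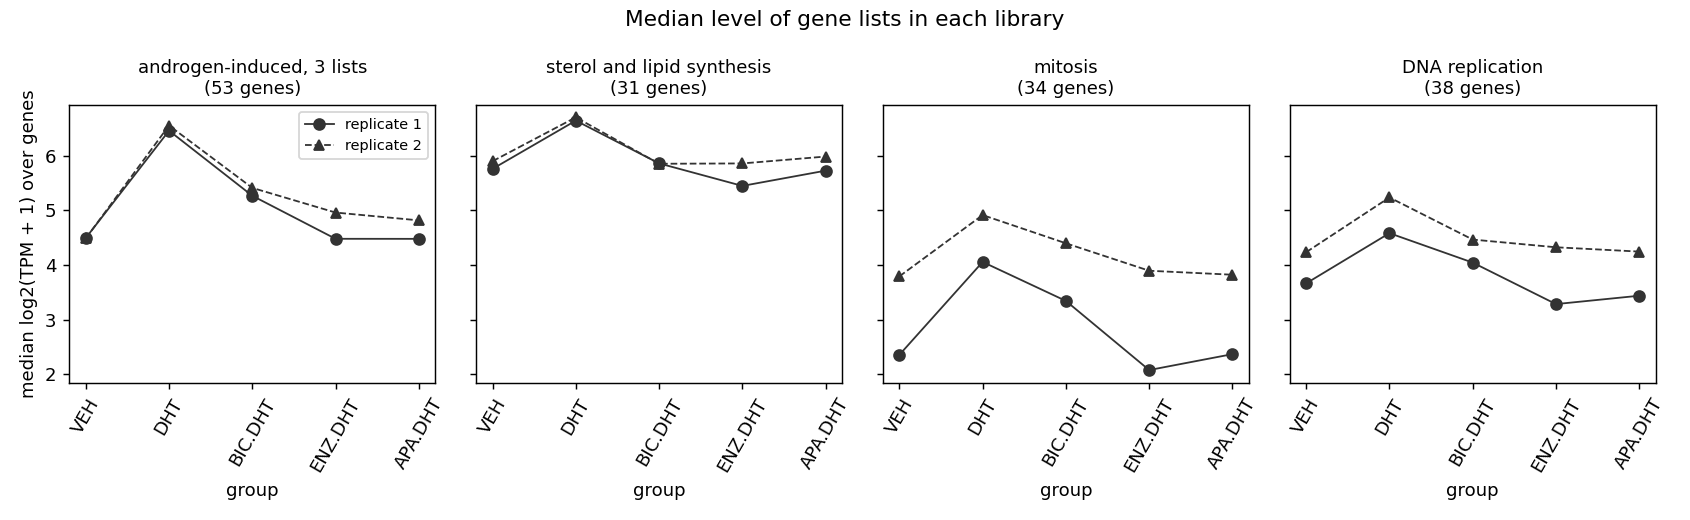
Median log2(TPM + 1) over the genes of 4 lists in each library, solid lines for replicate 1 and dashed lines for replicate 2. In both replicates the mitosis list is higher in BIC.DHT (3.34 and 4.40) than in ENZ.DHT (2.08 and 3.90) and APA.DHT (2.37 and 3.82), and the androgen-induced genes follow the same order.

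The 12 genes called higher with enzalutamide and apalutamide were mostly genes that DHT lowers. IFI27L2, a member of the interferon-inducible IFI27 family, was at 19.5 and 10.2 TPM in BIC.DHT, 51.8 and 24.5 in ENZ.DHT, and 42.5 and 22.8 in APA.DHT. All 4 second-generation values were above both bicalutamide values, as for 1155 (6.94%) of all genes, and the log2 fold change was 1.18 ± 0.14 (SE, adjusted p = 0.0165 in limma). In VEH it was at 44.0 and 28.0 TPM, and in DHT at 3.89 and 0.97. PLA2G2A (chr1:19975431-19980434), a secreted phospholipase, was at 284 and 166 TPM in BIC.DHT, 396 and 255 in ENZ.DHT, and 453 and 293 in APA.DHT. Replicate 1 was higher throughout, so the groups overlapped, while within each replicate bicalutamide was the lowest of the 3 (log2 fold change 0.65 ± 0.08 SE, adjusted p = 0.0165 in limma).

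DDC, the aromatic amino acid decarboxylase gene, was at 662 and 404 TPM in BIC.DHT, 853 and 553 in ENZ.DHT, and 858 and 559 in APA.DHT. It too was lowest with bicalutamide in each replicate, with a log2 fold change of 0.41 ± 0.06 (SE, adjusted p = 0.0246 in limma). TNFRSF12A, the receptor of the cytokine TWEAK, was at 35.0 and 29.1 TPM in BIC.DHT and between 42.0 and 56.6 TPM in the others (log2 fold change 0.56 ± 0.09 SE, adjusted p = 0.0422 in limma). NEIL1, a DNA glycosylase of base excision repair, was at 26.7 and 25.2 TPM in BIC.DHT and between 34.3 and 45.04 TPM in the others (0.59 ± 0.09 SE, adjusted p = 0.0401 in limma). MYOZ1, a Z-disc protein of muscle (0.68), GOLGA6L9 of a repeated golgin family (0.55), and the non-coding LINC02614 (0.70) were called as well, none with overlapping libraries. The golgin copies share reads, which makes the GOLGA6L9 value uncertain.

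In the list of 14 androgen-repressed genes these PLA2G2A and IFI27L2 calls were the only 2, against 0.0721% called higher over all genes tested. Of the 14, 8 were above 0 and 6 below 0, against 53.7% below 0 over all genes. The list as a whole had a median of 0.10. That median was not stable: it was -0.00048 without APA.DHT replicate 2, -0.03 without ENZ.DHT replicate 2, 0.01 without BIC.DHT replicate 2, 0.22 without BIC.DHT replicate 1, 0.26 without ENZ.DHT replicate 1 and 0.19 without APA.DHT replicate 1. UGT2B17, which glucuronidates androgen for export, was at 178 and 248 TPM in BIC.DHT, 164 and 314 in ENZ.DHT, and 188 and 302 in APA.DHT. Replicate 2 was higher in each group and the order of the groups differed between replicates (log2 fold change 0.14, adjusted p = 0.664 in limma), and reads shared with UGT2B15 make both uncertain.

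Several called transcripts have only a clone name and no RefSeq match. AC000041.1 was at 45.9 and 37.3 TPM in BIC.DHT, 3.32 and 9.13 in ENZ.DHT, and 5.80 and 11.9 in APA.DHT. Its groups were well apart, and the log2 fold change of -2.43 ± 0.41 (SE, adjusted p = 0.046 in limma) was the lowest of all 48 called genes. In VEH it was at 27.2 and 14.2 TPM, and in DHT at 27.2 and 44.1. AL031673.1 was at 4.26 and 4.86 TPM in BIC.DHT and between 8.03 and 8.78 in the others (log2 fold change 0.78), and AC009120.2 at 6.50 and 5.76 TPM in BIC.DHT and between 7.97 and 13.6 in the others (0.71). Both were called higher, without overlap. Below a mean of 5 TPM, AC016629.1 (2.13) was called higher and AC138305.3 (-1.15) lower, each listed at 0 in some libraries. AC008752.1, also below that mean and called higher, was above 0 in ENZ.DHT only.

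The DHT response gives a scale for these differences, and its 4 libraries are not among the 6 compared. Both contrasts come from the same fit of 16 libraries and share each gene's residual spread. A gene with a small spread is therefore more easily called in both, so the overlaps of calls are not between independent lists. DHT against VEH called 4559 genes (27.4%), of which 1762 (10.6%) were higher and 2797 (16.8%) lower. With median-ratio scaling of the TPM the split was 2868 higher and 2178 lower, and the median over all genes moved from -0.10 to 0.01. The number of DHT calls was 1709 without the block, 2890 without DHT replicate 1, 3021 without DHT replicate 2, 2581 without VEH replicate 1 and 2696 without VEH replicate 2. Of the 36 genes called lower with the second-generation antagonists, 34 were called higher with DHT, and of the 12 called higher, 10 were called lower with DHT. Among all 1762 DHT-raised genes 1501 were lower with the second-generation antagonists (median -0.19), and among the 2797 DHT-lowered genes 2058 were higher (median 0.11). Of all 16636 genes tested, 8941 (53.7%) were lower and 7660 higher. Genes that DHT moved at least 2-fold were further out, with 410 of 441 raised genes below 0 (median -0.46) and 451 of 547 lowered genes above 0 (median 0.22). The 12077 genes not called for DHT had a median of -0.03. Across all genes the 2 sets of log2 fold changes correlated at r = -0.369, given as a description over genes, which are not independent replicates.

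**Figure D4:**
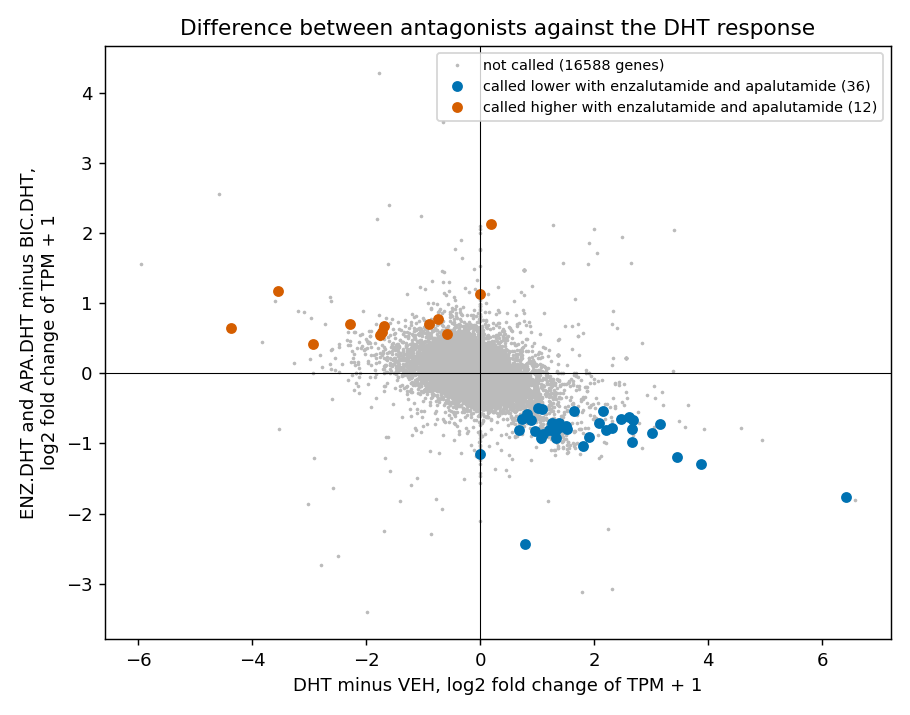
Log2 fold change of ENZ.DHT and APA.DHT minus BIC.DHT (vertical) against DHT minus VEH (horizontal) for each of 16636 genes, with the 36 genes called lower in blue and the 12 called higher in orange. Called lower genes lie at or to the right of 0 and called higher genes mostly to the left, with KLK3 at 6.42 and -1.76 as the called gene furthest right.

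Set against VEH, the genes called lower had a median log2 difference of -0.02 with the second-generation antagonists and DHT, 0.68 with bicalutamide and DHT, and 1.51 with DHT alone. Of the 36, 20 were below VEH in the second-generation groups and 0 were below it with bicalutamide. The called higher genes had medians of 0.04, -0.60 and -1.70 in the same order. The 53 androgen-induced genes, called or not, had -0.03, 0.34 and 1.69, and the mitosis list had -0.08, 0.83 and 1.46. These differences share the VEH libraries, and those of called genes also share the libraries by which they were called, so they are given side by side without a test.

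Of 5 further lists of pathways and functions none held a called gene. In the list of endoplasmic reticulum folding and secretion genes 0 of 24 were called in limma (4 at an unadjusted p below 0.05), 22 were below 0 and the median was -0.15, which became -0.08 without APA.DHT replicate 1 and -0.24 without APA.DHT replicate 2. Of 23 ATF4 amino acid stress genes 0 were called (4 unadjusted) and 17 were below 0. Over all genes tested 53.7% were below 0. DDIT3, the CHOP transcription factor gene, was at 51.8 and 36.4 TPM in BIC.DHT, 124 and 47.6 in ENZ.DHT, and 74.1 and 40.5 in APA.DHT (log2 fold change 0.57, adjusted p = 0.35 in limma). It was lowest with bicalutamide in both replicates, by more in replicate 1.

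Among 10 tested genes of the xenobiotic response 0 were called in limma (2 at an unadjusted p below 0.05) and 7 were above 0. Of all 16636 genes tested 7660 were above 0, 53.7% were below 0 and 6.8% were higher at an unadjusted p below 0.05. Without APA.DHT replicate 2, or without ENZ.DHT replicate 2, 5 of the 10 were below 0. On leaving out any other library 1 to 4 of them were. Among steroid receptors and androgen-metabolising enzymes 0 of 13 tested were called (1 unadjusted), with AKR1C3, the enzyme that forms testosterone from androstenedione, at 0.53 (adjusted p = 0.255 in limma). Mitochondrially encoded transcripts were below 0 in 12 of 13, with 0 called (1 unadjusted) and a median of -0.10, against -0.02 without BIC.DHT replicate 1 and -0.17 without BIC.DHT replicate 2.

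The 3 compounds were next compared pair by pair at the same doses and time. Enzalutamide differed from bicalutamide in 2 genes (0.012%), apalutamide from bicalutamide in 9 (0.0541%), and apalutamide from enzalutamide in 1 (0.00601%), each adjusted within its pair (limma, Benjamini-Hochberg). Adjusted over the 3 pairs together the counts were 2, 1 and 1, and without the block 1, 0 and 1. The enzalutamide count was 0 without BIC.DHT replicate 1, 1 without BIC.DHT replicate 2 and 37 without ENZ.DHT replicate 2. The apalutamide count was 1 without BIC.DHT replicate 2 and 0 without any 1 of the other 3 libraries of that pair. For apalutamide against enzalutamide it was 0 without either APA.DHT library, and on leaving out an ENZ.DHT library it was 3 (replicate 1) or 10 (replicate 2). ELOVL5 was called for both drugs against bicalutamide, at -0.67 with enzalutamide (95% interval -0.83 to -0.50, adjusted p = 0.02 in limma) and at -0.57 with apalutamide (-0.73 to -0.41, adjusted p = 0.0342 in limma). For apalutamide against bicalutamide the calls also included TMPRSS2 (-0.85), SLC45A3 (-1.10), PMEPA1 (-0.90), CENPN (-0.89), PRIM1 (-0.89) and PLA2G2A (0.75). Enzalutamide had -0.59, -0.86, -0.73, -0.80, -0.85 and 0.55 for the same genes, in the same order, against the same bicalutamide libraries. KLK3 was at -1.73 with enzalutamide (-2.44 to -1.01) and -1.80 with apalutamide (-2.52 to -1.08), and passed in neither pair (adjusted p = 0.0954 and 0.121 in limma).

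Between the thiohydantoins the direct difference was called for 1 gene, and its interval bounds the size for the others. The 95% interval of apalutamide minus enzalutamide lay within 1 log2 unit of 0 for 15658 genes (94.1%) and for 45 of the 48 called genes, and the median distance from its centre to either end was 0.357. For KLK3 the difference was -0.07 (-0.79 to 0.64), for TRPM8 0.14 (-0.28 to 0.55) and for ELOVL5 0.10 (-0.06 to 0.26). For TMPRSS2 it was -0.26 (-0.51 to -0.02, unadjusted) and for SLC45A3 -0.24 (-0.52 to 0.03), and neither was called (adjusted p = 1.0 in limma). The mitosis list had a median of -1.03 with enzalutamide and -0.82 with apalutamide against bicalutamide, and 0.21 for apalutamide minus enzalutamide. The 1 called gene was the clone-named transcript AC008752.1, at 2.70 and 5.42 TPM in ENZ.DHT and listed at 0 in every other library, a value that can be a failed estimate. Being at 0 in BIC.DHT too, AC008752.1 was also 1 of the 2 genes called for enzalutamide against bicalutamide. It was likewise 1 of the 12 called higher with the second-generation antagonists. The intervals do not show that the compounds act alike, since differences within them remain possible.

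**Figure D5:**
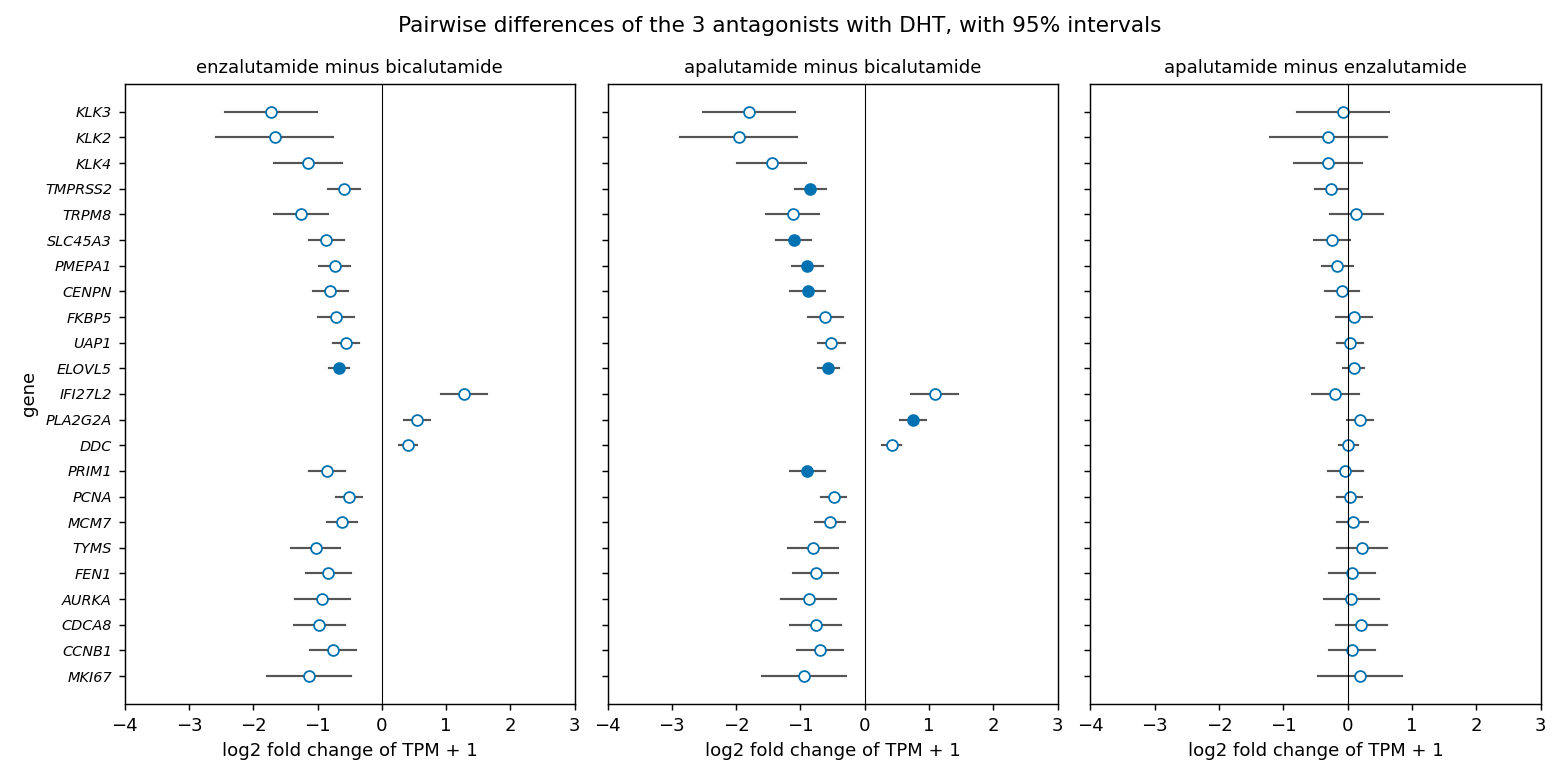
Pairwise log2 fold changes of TPM + 1 with 95% intervals (limma, with replicate block) for 23 genes, filled where the adjusted p of that pair was below 0.05. Both drugs lie on the same side of bicalutamide for every gene plotted, ELOVL5 is filled in both of those panels, and no gene plotted is filled for apalutamide minus enzalutamide.

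The same contrast without DHT asked whether the difference needs the added androgen. It called 14 genes (0.0842%), of which 13 were lower and 1 higher with the second-generation antagonists. There were 2 calls without the block, 3 without BIC.VEH replicate 1 and 1 without BIC.VEH replicate 2. KLK3 was at 358 and 206 TPM in BIC.VEH, 72.9 and 71.5 in ENZ.VEH, and 30.4 and 20.4 in APA.VEH, and at 53.0 and 24.0 in VEH. Bicalutamide without DHT lay above VEH in both replicates, as did enzalutamide by less, while apalutamide lay below it. The log2 fold change between the antagonists was -2.65 ± 0.28 (SE, adjusted p = 0.00621 in limma). ARHGEF26, a guanine nucleotide exchange factor for small GTPases, was at 87.0 and 75.8 TPM in BIC.VEH, 38.7 and 37.7 in ENZ.VEH, and 32.7 and 27.9 in APA.VEH (-1.23 ± 0.08 SE, adjusted p = 0.000153 in limma). With DHT the same gene was at 86.8 and 78.9 TPM in BIC.DHT and between 48.3 and 59.7 TPM in the others (-0.65 ± 0.08 SE, adjusted p = 0.0165 in limma). TRPM8 (-1.54), SLC45A3 (-0.98), KLK4 (-1.82), TMPRSS2 (-0.79), ELOVL5 (-0.53) and PMEPA1 (-0.68) were called in both settings. The 1 gene called higher was the spliceosomal RNA gene RNU5E-1, at 8.68 and 11.9 TPM in APA.VEH and listed at 0 in the other 14 libraries.

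Whether the antagonist difference changed with DHT was tested as an interaction, which called 0 genes (0.0%), with 420 at an unadjusted p below 0.05 in limma. For KLK3 the interaction was 0.88 (95% interval 0.0047 to 1.76, adjusted p = 0.979 in limma), for ARHGEF26 0.59 (0.34 to 0.83, adjusted p = 0.879 in limma) and for PRIM1 -0.47 (-0.81 to -0.14, adjusted p = 0.979 in limma). The mitosis list had a median of -0.66 without DHT against -0.92 with it, and the 53 androgen-induced genes had -0.28 against -0.44. Across all genes the contrasts with and without DHT, which share no library, correlated at r = 0.29.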

How the data were processed

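Poly(A) RNA of LNCaP cells was sequenced in biological duplicates of 8 groups. Per the labels and the study's methods, the authors checked reads with FastQC (0.11.9), trimmed with Trim Galore (0.6.5), aligned to hg38 with STAR (2.7.2b) and estimated abundances with RSEM (1.3.3), and deposited 1 table of TPM values. The libraries were strand-specific. Whether counting used the strand is not given in the sources used here, so genes that overlap on opposite strands, such as TYMS, CENPN and DDC with their neighbours, may share reads. TPM are relative to a library's total and keep no depth.

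Genes with at least 1 TPM in at least 2 of the 16 libraries were kept (16636 of 60642 genes; 26439 were at 0 everywhere), and log2(TPM + 1) was fitted with limma (3.58.1, R 4.3.3, trend option) on all 16 libraries, with 8 group means and the replicate number as a block (7 residual degrees of freedom). The contrast was the mean of ENZ.DHT and APA.DHT minus BIC.DHT. P-values were two-sided and adjusted over all tested genes by the Benjamini-Hochberg method, with calls below 0.05. Fold changes are on the log2(TPM + 1) scale and understate changes of low genes. The p-values rest on each gene's residual spread over all 8 groups, after removal of the difference between replicate numbers that the groups share. Limma moderates that spread across genes. It is not the spread between the duplicates of the 3 compared groups alone. The labels give each group the same 2 numbers as biological replicates, and these were taken to pair the samples. Differences between replicates 1 and 2 correlated at r between 0.204 and 0.635 over all 28 pairs of groups. With BIC.DHT the correlation was 0.268 for ENZ.DHT and 0.367 for APA.DHT. Replicate 1 is labelled 3A in BIC.DHT but 3 in ENZ.DHT and APA.DHT, and the meaning of the letter is not given. Pairing of BIC.DHT with the other antagonist groups is therefore less certain. Between ENZ.DHT and APA.DHT the correlation was 0.635, so their libraries share deviations that 1 common block may not remove. The fit takes them as independent, and the standard errors of the contrast may be too small.

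Named genes were a panel of 25, up to 10 called genes per direction with the largest changes among those with a mean of at least 5 TPM and no overlap, the 3 members of each of 16 lists with the lowest p, called list members, and calls of the pairs and of the contrast without DHT. Other called genes (DDC, MBOAT2, NCAPH, MAD2L1, CCNA2, ORC1, AC138305.3) and list members given as counterexamples were chosen after their values were seen. The comparison, panel and lists were chosen with earlier results of these data known. Some genes that the rule takes are not reported here. Coordinates and start sequences are from RefSeq (GRCh38.p14), matched by symbol for 14147 of 16636 genes. Alternatives were no block, only the compared groups, a pseudocount of 0.1, no filter, a filter at 5 TPM, median-ratio scaling, no trend, both drugs as 1 group, adjustment over the 3 pairs, and leaving out each library.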

Additional observations from a re-analysis of the deposited data

Results flagged for a closer look

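The effect against bicalutamide differed between apalutamide and enzalutamide for the clone-named transcript AC008752.1, with a fitted log2 difference of -2.29 for apalutamide minus enzalutamide (limma adjusted p = 0.0113). It was at 2.70 and 5.42 TPM in ENZ.DHT and listed at 0 in the other 14 libraries, so the fitted value depends on the pseudocount and is no measure of size, and the gene was not called with a pseudocount of 0.1.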

How the results depend on the processing

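The 48 genes called for the second-generation antagonists against bicalutamide with DHT kept their sign under every alternative in which they were tested, while the number of calls moved. It was 0 without the replicate block (adjusted p of the 48 from 0.321 to 0.893, limma), 0 with the compared groups alone in the fit (0.192 to 0.378, 1869 genes at an unadjusted p below 0.05), 11 with a pseudocount of 0.1, 25 with no filter, 61 with a filter at 5 TPM, 90 with median-ratio scaling, 85 with no trend option, 1 with both drugs as 1 group, and between 0 and 204 on leaving out a library. Of the 48, 11 were shared with the pseudocount of 0.1, 16 with no filter, 41 with median-ratio scaling and 47 with no trend option. Enzalutamide against bicalutamide gave 1 call without the block, 0 with the compared groups alone, 1 with the pseudocount of 0.1, 14 with no filter, 1 with median-ratio scaling, 1 with no trend option and 0 to 37 on leaving out a library. Apalutamide against bicalutamide gave 0 without the block, 0 with the compared groups alone, 5, 3 and 0 with the pseudocount of 0.1, median-ratio scaling and no trend option, 1 when adjusted over the 3 pairs together, and 0 to 1 on leaving out a library. Apalutamide against enzalutamide gave 0 with the compared groups alone, with the pseudocount of 0.1 and with the filter at 5 TPM, 8 with no filter, and 0 to 10 on leaving out a library. The contrast without DHT gave 2 without the block and 2 with the compared groups alone, 22 with no filter and 1 to 11 on leaving out a library. The interaction gave 3 with no filter, 1 with no trend option and 0 to 1 on leaving out a library. DHT against VEH gave 1709 without the block and 2581 to 3021 on leaving out a library. Medians of DHT-raised and DHT-lowered genes moved to -0.459 and 0.218 at 2-fold or more. The sign turned for genes that were not called: on leaving out a library STEAP4 ranged from -0.098 to 0.028, UGT2B15 from -0.16 to 0.29 and FOLH1 from -0.084 to 0.067, and FOLH1 was at 0.0049 with median-ratio scaling. The cause of these moves was not tested. A left-out library leaves a group with 1 sample, which is then assumed to vary like the others. With duplicates in 1 cell line and TPM without depth, a gene that was not called cannot be taken as unaffected.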
